A study of Mus musculus with 2 samples.

Results

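The genes described here encode the collagens, laminins and linking proteins from which basement membranes and the fibrous matrix around cells are built, with 2 proteins that fold collagen chains inside the cell. The rule takes 34 genes listed by name, a list drawn up with earlier results of these data known, and every probeset of the deposited table that the platform's annotation gives to 1 of these genes alone. This gave 1486 probesets, of which 1242 were bright, meaning that the higher of the 2 values was at or above the table's median of 3.17. A gene counted as measured with at least 4 bright probesets, which 33 of the 34 had (6 to 88 probesets each, median 38), among 15087 measured genes in all. The exception was Lamb2, with 3 probesets.

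Both samples came from Bry-GFP mouse embryonic stem cells, a line in which GFP reports the activity of Brachyury, a gene of early mesoderm. FLK1-positive mesoderm was taken from embryoid bodies at day 3 and cultured with the solvent DMSO (control) or with 300 nM of compound B, an inhibitor of the histone demethylase LSD1. The CD41-positive cells of each culture were sorted on day 2 of culture, and total RNA of each sort was hybridised to 1 Affymetrix array, so the 2 arrays share the line, the mesoderm sort and the CD41 gate and differ in the agent. The labels name the cells hemogenic endothelium. Itga2b, which encodes CD41, had levels of 6.19 with DMSO and 6.00 with the inhibitor, and Cdh5, which encodes VE-cadherin, had levels of 7.89 and 9.84, all well over the table's median.

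With 1 array per condition no difference could be tested, and so few arrays limit the precision of every value. A level is the median log2 intensity of a gene's bright probesets in an array. A difference is the median over the same probesets of inhibitor minus control, and can depart from the gap that the levels show. The SD given with it is the spread over probesets and is no replicate error. Levels of different genes come from different probes and were not set against each other.

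A basement membrane is a thin sheet under endothelium and epithelium and around muscle. Laminins, trimers of an alpha, a beta and a gamma chain, form a first network at the cell surface, and type IV collagen forms a second, covalently linked one. Nidogens and the proteoglycans perlecan and agrin join the networks. Fibrillar collagens, made mostly by mesenchymal cells, give tensile strength to the tissue around it. In the embryo, endothelial cells and the mesenchyme beside them both deposit these proteins, and fibronectin is an early scaffold on which blood vessels form.

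No gene of the list reached a 2-fold difference in either direction. Of all 15087 measured genes, 1.72% were higher with the inhibitor by 2-fold or more and 0.563% lower by as much, each with at least 75% of its bright probesets in that direction. The median difference of the 33 genes was 0.03 on the log2 scale, beside 0.06 for all measured genes. Of the 33, 18 were above 0 and 15 below, where 59.0% of all measured genes were above 0. The sign counts given by role below stand beside the same share. Differences ran from -0.76 for Col12a1 to 0.96 for Col4a1, and 20 of the 33 lay within 0.30 of 0. At 1.5-fold, with the same requirement on direction, Col4a1, Col4a2 and Lama3 were higher (3 of 33, where 5.85% of all measured genes were) and Col12a1 was lower (1 of 33, where 2.66% were). For Lama3 the difference was 0.42, under 1.5-fold, when probesets that were not bright were kept. Counts as small as these say nothing about the list as a whole. The differences set apart single chains within the same protein families, as the plot of probeset differences by role shows. In RNA from a sorted population, fewer cells of a type and less RNA per cell cannot be told apart.

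**Figure D1:**
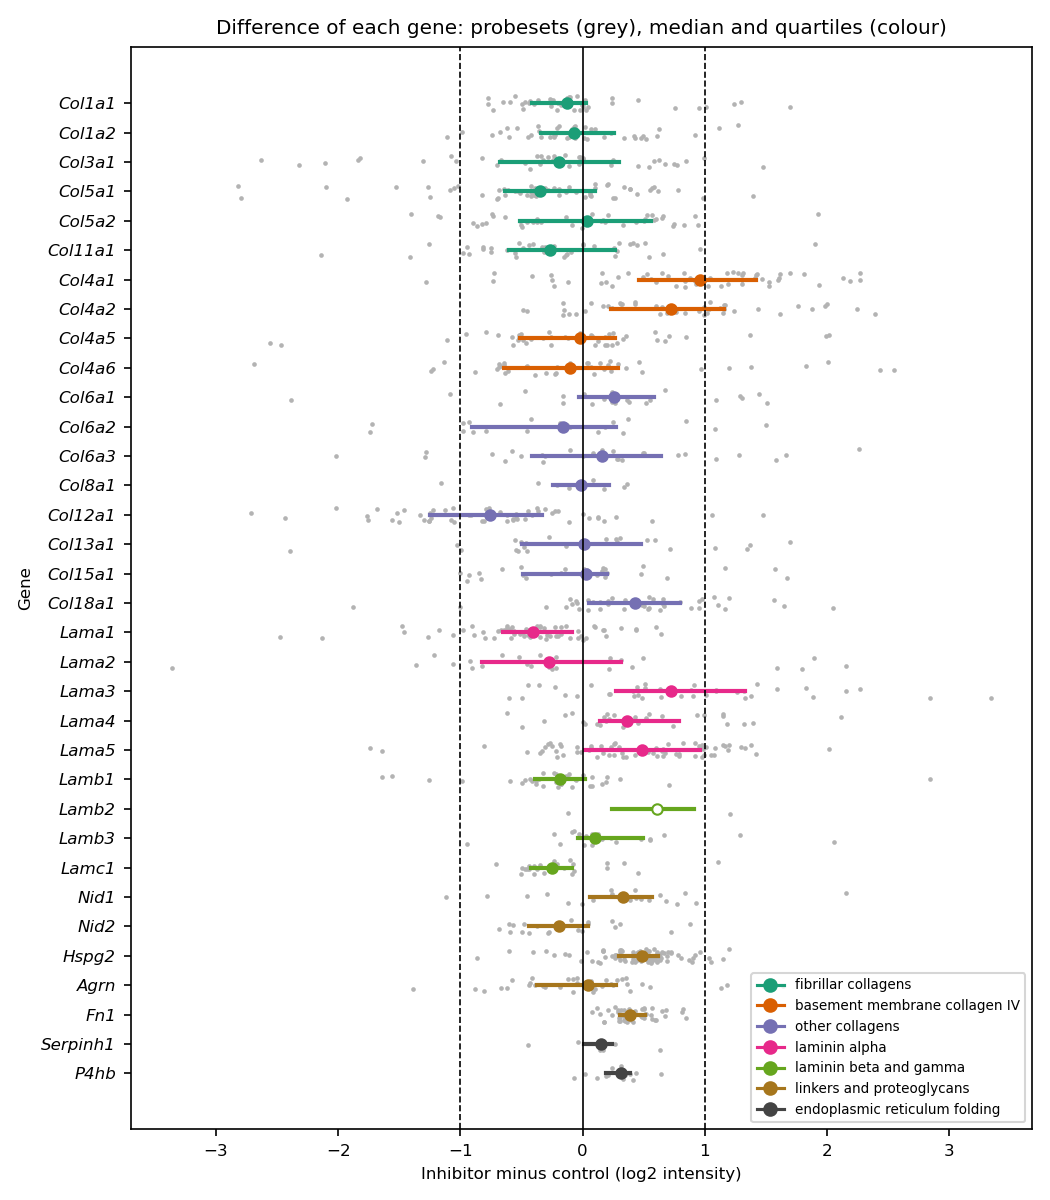
Difference of each gene on the log2 scale, inhibitor minus control. Grey points are bright probesets, coloured points are medians and coloured bars span the quartiles of the probesets. The open circle is Lamb2, which has 3 probesets. Dashed lines mark a 2-fold difference. No median passes a dashed line, Col4a1 comes closest at 0.96, and the probesets of Fn1 (median 0.39, SD 0.18) lie closest together.

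Markers of cell types that the sorted cells could hold also differed between the arrays. Of 11 measured endothelial markers, 4 passed the 2-fold rule as higher and none as lower, with a median difference of 0.96. Emcn, at 1.02, missed the rule on direction alone, with 10 of 14 probesets higher. At 1.5-fold 8 of the 11 were higher and none lower. Of the 11, 9 were above 0 and 2 below, Cd34 (-0.53, 10 of 12 probesets lower) and Robo4 (-0.10, 11 of 18 lower). The median level of the 11 was 6.36 with DMSO and 6.81 with the inhibitor, with single genes between 3.62 and 7.89 and between 4.41 and 9.84. Of 10 measured mesenchyme and smooth muscle markers, 2 were lower (Dcn by -1.40 and Postn by -1.32) and none higher, with a median of -0.37. At 1.5-fold 3 of the 10 were lower and 1 was higher, and 3 were above 0. Their median level was 5.24 and 5.02, with single genes between 3.85 and 11.06 and between 2.89 and 10.46, and the inhibitor level of 1 of them, Dcn, was under the table's median. Red cell markers were lower in 5 of 6 measured genes, with a median of -1.37. None of 10 endoderm markers passed the rule (median 0.07), nor did any of 8 markers of early blood (median -0.23). At 1.5-fold 2 of the 8 early blood markers were lower and none higher, and 6 were below 0 and 2 above. The 2 lower ones were Gata1 (-0.73, 9 of 9 probesets lower) and Kit (-0.66, 20 of 22 lower). The part of these cell types in the differences of Col4a1, Col4a2, Hspg2 and Col12a1 was not tested.

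Type IV collagen divided by chain pair. Col4a1 encodes the more abundant chain of the heterotrimer found in nearly all basement membranes. Its level was 6.03 with DMSO (quartiles of the probesets 4.96 and 6.76) and 6.58 with the inhibitor (quartiles 5.51 and 7.78). The difference was 0.96, or 1.95-fold (SD 0.79 over 56 probesets), 48 of the 56 probesets were higher with the inhibitor, and 27 of them at least 2-fold. Col4a2, the partner chain in that heterotrimer, had levels of 5.15 and 6.18 and a difference of 0.73, or 1.65-fold (SD 0.72 over 44 probesets). Of its 44 probesets, 37 were higher and 17 at least 2-fold higher. Over the 32 Col4a2 probesets whose mean of both arrays lay at or above the table's 75th percentile of 4.84, the difference was 0.92, and over the 12 dimmer ones 0.36. For Col4a1 the same split gave 1.01 over 46 probesets and 0.90 over 10. Among all measured genes Col4a1 stood at percentile 98.0 of the differences and Col4a2 at percentile 95.8.

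Col4a5 and Col4a6 encode chains of other type IV collagen trimers, with a narrower distribution that includes kidney and smooth muscle. Col4a5 had levels of 4.94 and 4.78 and a difference of -0.03 (SD 0.86 over 43 probesets), which turned to 0.0019 with each array centred on its median and to 0.01 after quantile normalization. Its probesets were split, 21 higher and 22 lower. The levels of Col4a6 were 4.13 and 4.19 and its difference was -0.10 (SD 1.02 over 41 probesets), with 20 probesets higher and 21 lower, and 22 of its 63 probesets were too dim to be used. The remaining chains of the family, Col4a3 and Col4a4, differed by 0.10 and 0.16.

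The type IV collagen genes lie in the genome as head-to-head pairs, Col4a1 beside Col4a2 on chromosome 8 and Col4a5 beside Col4a6 on chromosome X, with no other protein-coding gene between the partners in the RefSeq annotation of GRCm38.p6. Their promoters are shown because the first pair held the furthest upward differences of the list and the second pair did not. Each sequence is the RefSeq window of 250 bases before to 50 bases after a gene's start in GRCm38.p6, written 5′ to 3′ on the strand of the gene. Capitals in Col4a1 (chr8:11312777-11313076, minus strand) and Col4a2 (chr8:11312555-11312854, plus strand) mark the 78 bases that lie in both windows. In the other pair, Col4a5 (chrX:141475169-141475468, plus strand) and Col4a6 (chrX:141474027-141474326, minus strand), capitals mark matches to CCAAT or GGGCGG on either strand.
Col4a1: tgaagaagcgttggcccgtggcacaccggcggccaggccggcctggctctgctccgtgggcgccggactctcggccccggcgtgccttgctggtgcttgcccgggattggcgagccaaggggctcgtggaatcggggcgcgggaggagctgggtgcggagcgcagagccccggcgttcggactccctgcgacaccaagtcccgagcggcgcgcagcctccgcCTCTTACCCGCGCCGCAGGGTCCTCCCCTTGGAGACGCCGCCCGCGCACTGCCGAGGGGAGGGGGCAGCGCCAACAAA
Col4a2: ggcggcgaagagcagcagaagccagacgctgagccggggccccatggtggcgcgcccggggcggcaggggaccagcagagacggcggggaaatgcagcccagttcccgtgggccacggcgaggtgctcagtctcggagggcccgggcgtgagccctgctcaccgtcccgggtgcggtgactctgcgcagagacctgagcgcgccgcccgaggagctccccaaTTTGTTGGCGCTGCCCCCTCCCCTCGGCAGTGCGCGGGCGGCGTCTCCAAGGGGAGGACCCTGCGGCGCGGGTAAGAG
Col4a5: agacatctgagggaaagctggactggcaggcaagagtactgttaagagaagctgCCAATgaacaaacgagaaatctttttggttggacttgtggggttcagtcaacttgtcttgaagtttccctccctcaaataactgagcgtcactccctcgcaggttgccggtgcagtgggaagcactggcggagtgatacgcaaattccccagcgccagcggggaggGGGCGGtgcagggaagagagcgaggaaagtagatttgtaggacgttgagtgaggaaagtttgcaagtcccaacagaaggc
Col4a6: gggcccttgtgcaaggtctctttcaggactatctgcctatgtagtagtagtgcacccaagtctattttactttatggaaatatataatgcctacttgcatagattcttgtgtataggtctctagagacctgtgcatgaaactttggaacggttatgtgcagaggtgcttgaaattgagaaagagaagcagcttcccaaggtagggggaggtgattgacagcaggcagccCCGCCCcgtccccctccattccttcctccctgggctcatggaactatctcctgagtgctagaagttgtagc

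The starts of Col4a1 and Col4a2 in these windows are 21 bases apart, on opposite strands, so the capitals of one sequence are the reverse complement of the capitals of the other. Each of these 2 genes is read across the start of the other. The starts of Col4a5 and Col4a6 are 1343 bases apart, with the genes read away from each other, and their windows do not meet. The windows of Col4a1 and Col4a2 have a GC content of 74.0% and 73.7%, with 37 and 33 CpG dinucleotides, and those of Col4a5 and Col4a6 of 52.7% and 48.3%, with 11 and 3. The median window of the table had a GC content of 52.7% and 7 CpG dinucleotides. Promoter windows were matched for 25 of the 34 genes, 29 windows in all, with a median GC content of 61.3%. Counting both strands, GGGCGG, the GC box, was found in 20 of the 29 windows (69.0%) and in 35.7% of all 32851 windows in the table, which covers coding and other genes. These windows are not independent. The only match of Col4a1 lies in the bases shared with Col4a2 and is counted for both, and Agrn and Col6a2 each count with more than a single window. The other motifs searched were CCAAT (9 of 29 windows, 37.4% of all), TATAAA (2 of 29, 13.6% of all), AGATAA, a form of the GATA site (0 of 29, 11.2% of all), and AAATCAC, part of the site described for Gfi1 (0 of 29, 3.20% of all). None of these motifs lies within another. A match in such a window is a description of the letters and says nothing of binding in these cells.

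**Figure D2:**
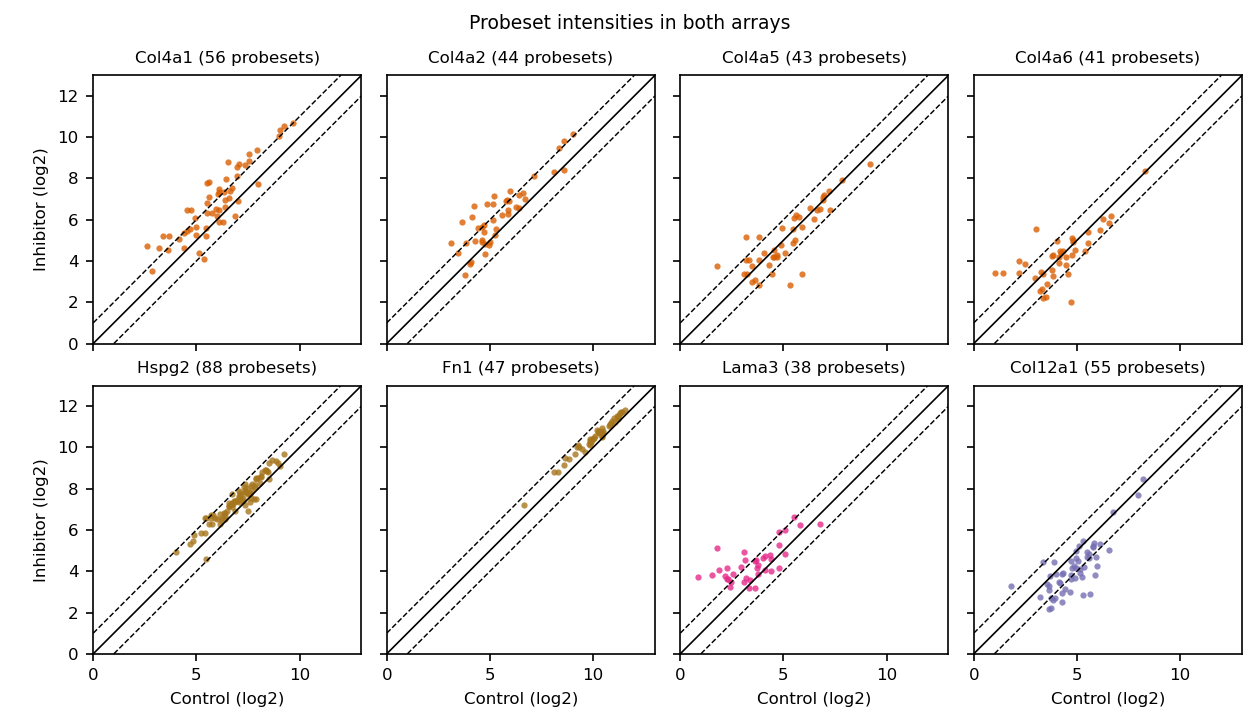
Log2 intensity of every bright probeset in the control array (horizontal axis) and the inhibitor array (vertical axis) for 8 genes. The solid line marks equal values and the dashed lines a 2-fold difference. Points of Col4a1 and Col4a2 lie mostly above the solid line (48 of 56 and 37 of 44), those of Col4a5 and Col4a6 on both sides of it, those of Fn1 all above it, and those of Col12a1 mostly below it (46 of 55).

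Laminin alpha chains, which carry most of the binding sites for cell receptors, also differed by chain. Lama4 and Lama5 are the alpha chains of vascular basement membranes. Lama4 had levels of 4.89 and 5.27 and a difference of 0.37 (SD 0.59), with 27 of 32 probesets higher in the inhibitor array. The levels of Lama5 were 5.26 and 5.69 and its difference was 0.48 (SD 0.66), with 53 of 71 probesets higher. Both differences were under 1.5-fold. Lama1, the alpha chain of the earliest embryonic basement membranes, was on the other side of 0: its levels were 5.29 and 5.05 and its difference -0.40 (SD 0.58), with 48 of 60 probesets lower. Over the 37 brighter Lama1 probesets, with a mean at or above the table's 75th percentile, the difference was -0.43, and over the 23 dimmer ones -0.37.

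Lama2, the alpha chain of muscle and peripheral nerve, was dim, with 25 of its 65 probesets bright. Its levels were 4.03 and 3.67 and its difference -0.27 (SD 1.18), which became -0.04 when dim probesets were kept. Lama3, best known from epithelium, where it anchors the basal layer, had the third-highest difference of the list, 0.72 or 1.65-fold (SD 0.91 over 38 probesets, 31 of them higher), from levels of 3.61 and 4.16. This value rests on dim probesets. In the control array 16 of the 38 were below the table's median, another 26 probesets of the gene were below it in both arrays, and 31 of the 38 had a mean under the table's 75th percentile. The difference was 0.42 with no filter on dim probesets, 0.50 when the mean of both values had to reach the table's median, 0.49 when values below that median were raised to it, and 0.91 with the filter at the 75th percentile. The first 3 of these settings left it under 1.5-fold. The last filter acts on the higher of the 2 values, so a probeset can enter through the inhibitor array alone. Over the 7 probesets whose mean of both arrays reached the 75th percentile, the difference was 0.45.

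The beta and gamma chains that pair with these alpha chains differed little. Lamc1, the gamma chain of most laminins, had levels of 7.20 and 6.96 and a difference of -0.25 (SD 0.37), with 22 of 27 probesets lower. Lamb1, the beta chain of the embryonic laminins, which the annotation lists under its older symbol, had levels of 6.15 and 5.96 and a difference of -0.19 (SD 0.70), with 26 of 36 probesets lower. Lamb3, a partner of Lama3 in epithelial laminin, had levels of 4.54 and 4.62 and a difference of 0.10 (SD 0.61 over 20 probesets). Lamb2 gave values of 4.98 and 5.57 over its 3 probesets, 2 of which were higher, and was not counted. Of the 5 alpha chains 3 were above 0 and 2 below, and of the 3 measured beta and gamma chains 1 was above and 2 below, in the main setting and under each of 3 other scalings.

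Linking proteins and fibronectin were above 0 in 4 of 5 genes in the main setting, with differences under 1.5-fold. Hspg2 encodes perlecan, a large heparan sulfate proteoglycan of vascular basement membranes. Its levels were 7.11 with DMSO (quartiles 6.37 and 7.72) and 7.47 with the inhibitor (quartiles 6.82 and 8.10), and the difference was 0.48, or 1.40-fold (SD 0.35), with 80 of 88 probesets higher. Fn1, which encodes fibronectin, had levels of 10.25 and 10.57 and a difference of 0.39, or 1.31-fold. All 47 of its probesets were higher, by between 0.08 and 0.85, and their SD of 0.18 was the lowest of the list. Nid1, a nidogen, had levels of 6.10 and 6.54 and a difference of 0.33 (SD 0.63), with 18 of 24 probesets higher. The other nidogen, Nid2, went the other way, with levels of 7.40 and 7.27, a difference of -0.19 (SD 0.39) and 18 of 25 probesets lower. Agrn, which encodes agrin, had levels of 5.35 and 5.58, 20 of 38 probesets higher and a difference of 0.04, which turned to -0.0033 after quantile normalization and to -0.07 with a level-dependent trend removed.

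Fibrillar collagens, made mostly by mesenchymal cells, had differences between -0.35 and 0.04, with 5 of 6 below 0. Col1a1 and Col1a2, the chains of type I collagen, had levels of 5.73 and 5.62 and of 5.77 and 5.50, and differed by -0.13 (SD 0.57, 30 of 43 probesets lower) and -0.07 (SD 0.51, 26 of 44 lower). Col3a1, which forms type III collagen of vessel walls, had levels of 4.72 and 4.67 and a difference of -0.19 (SD 0.93 over 40 probesets), and its neighbour in the genome, Col5a2, had levels of 3.97 and 4.03 and a difference of 0.04 (SD 0.72 over 42 probesets), which turned to -0.05 with a level-dependent trend removed. Col5a1, whose product starts the assembly of fibrils, had levels of 5.38 and 5.09 and the lowest difference of the group, -0.35 (SD 0.79, 40 of 61 probesets lower). Col11a1, a related fibril chain of cartilage, had levels of 4.69 and 4.44 and a difference of -0.27 (SD 0.70, 27 of 42 lower). None of the 6 had as many as 75% of its probesets on one side.

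Among the other collagens, Col12a1 stood lowest of the whole list. It encodes a collagen that sits on the surface of fibrils in dense connective tissue. Its level was 4.93 with DMSO (quartiles 4.06 and 5.54) and 3.93 with the inhibitor (quartiles 3.29 and 4.69), and the difference was -0.76, or 1.70-fold (SD 0.78). Of its 55 probesets, 46 were lower with the inhibitor and 21 at least 2-fold lower, and 13 of the 55 were below the table's median in the inhibitor array against 1 in the control array. With values below that median raised to it the difference was -0.62. Over the 18 probesets with a mean at or above the 75th percentile it was -0.59.

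Col18a1, a basement membrane collagen with heparan sulfate chains from which endostatin is cut, had levels of 6.05 and 6.35 and a difference of 0.43, or 1.35-fold (SD 0.66), with 36 of 45 probesets higher. Its closest relative, Col15a1, had levels of 4.84 and 5.01 and differed by 0.03 (SD 0.70 over 28 probesets), and by -0.05 once a level-dependent trend was removed. The chains of type VI collagen, which forms beaded filaments at the edge of basement membranes, differed in sign. Col6a1 had levels of 3.89 and 4.37 and differed by 0.26 (SD 0.85, 18 of 24 probesets higher), its neighbour Col6a2 had levels of 4.72 and 4.18 and differed by -0.16 (SD 0.86, 12 of 20 lower), and Col6a3 had levels of 4.03 and 3.98 and differed by 0.16 (SD 0.96 over 27), which became 0.0064 when dim probesets were kept. Col8a1, a short-chain collagen laid down under endothelium, had levels of 4.64 and 4.50 and differed by -0.01 over 8 probesets, turning to 0.01 with each array centred and to 0.03 after quantile normalization. Col13a1, a collagen anchored in the cell membrane, had levels of 5.65 and 4.72, and a median difference of 0.01 (SD 0.87), with 13 of its 26 probesets higher and 13 lower. It was -0.07 with a level-dependent trend removed and -0.47 with the filter at the 75th percentile.

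Both folding proteins were above 0. P4hb, a protein disulfide isomerase that is also a subunit of the prolyl hydroxylase of collagen, had levels of 9.07 and 9.31 and a difference of 0.32, or 1.25-fold (SD 0.19), with 12 of 13 probesets higher. Serpinh1, the collagen chaperone of the endoplasmic reticulum, had levels of 7.16 and 7.25 and a difference of 0.15 (SD 0.35), with 4 of 6 probesets higher.

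Small differences that most probesets of a gene share can be read against the same count over other genes. At least 75% of probesets were higher in 10 of the 33 genes, namely Col4a1, Col4a2, Col6a1, Col18a1, Lama3, Lama4, Nid1, Hspg2, Fn1 and P4hb (30.3%, beside 23.0% of all measured genes), and at least 75% were lower in 3, Col12a1, Lama1 and Lamc1 (9.09%, beside 10.8%). Genes with many probesets reached such a share less often. Among the 2760 measured genes with 20 or more bright probesets, 15.0% had at least 75% higher and 7.25% at least 75% lower, and among the 30 genes of the list with that many the counts were 9 (30.0%) and 3 (10.0%). The list was drawn up with earlier results of these data known, so these shares do not test it. At 1.5-fold, 4.75% of those 2760 genes were higher and 1.74% lower, against 3 and 1 of the 30, and at 2-fold 1.49% were higher and 0.471% lower, against none of the 30. Within them Col4a1 was at percentile 98.3 of the differences, Col4a2 and Lama3 at 96.6, Hspg2 and Lama5 at 93.0, Fn1 at 90.6, Col5a1 at 4.86, Lama1 at 3.95 and Col12a1 at 0.942. The counts and the percentile of Lama3 rest on 38 bright probesets, 16 of them below the table's median in the control array and none in the inhibitor array.

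**Figure D3:**
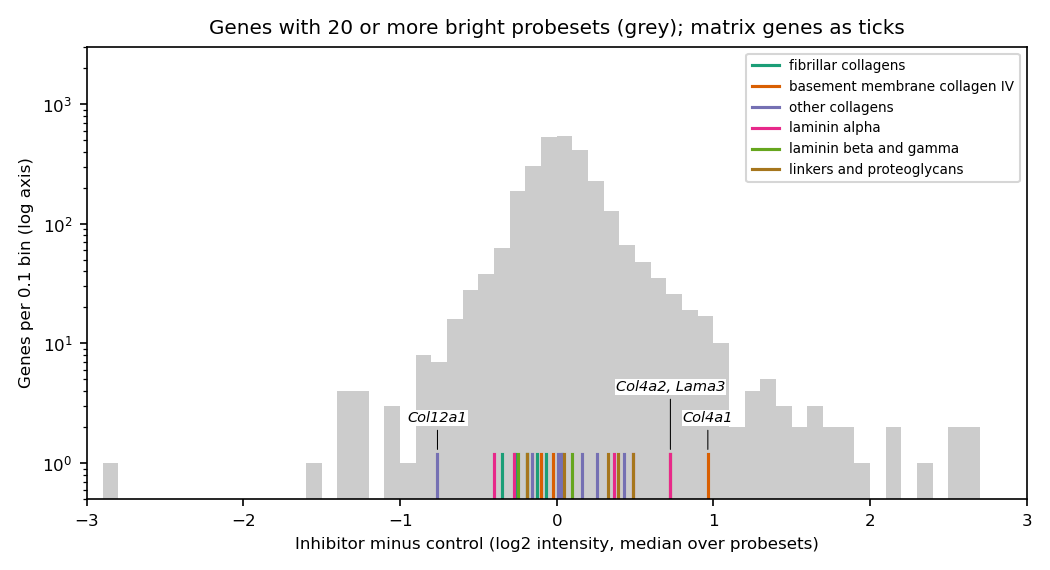
Differences of the 2760 measured genes with 20 or more bright probesets, in bins of 0.1 on the log2 scale (grey bars, log axis for the number of genes), with the 30 listed genes of that kind as coloured ticks by role. Most ticks lie in the centre of the distribution, and Col4a1 (0.96), Col4a2 (0.73), Lama3 (0.72) and Col12a1 (-0.76) lie furthest out. The difference of Lama3 is 0.42 when dim probesets are kept.

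Genes that modify, bind or cut these proteins were described from lists set by function. Of 24 measured further collagen and laminin chains, none reached a 2-fold difference. Their median was -0.05, and the chains furthest from 0 were Col10a1 (-0.71 over 4 probesets), Col8a2 (-0.35), Col28a1 (-0.16) and Col4a4 (0.16). Of 28 measured genes for collagen modification and secretion none reached 2-fold either, and the median was 0.15. At 1.5-fold, 3 were higher, namely the crosslinking transglutaminase gene Tgm2 (levels 4.92 and 5.80, difference 0.98, 10 of 11 probesets), the prolyl hydroxylase gene P3h1 (0.62) and its relative P3h4 (0.60), and 1 was lower, the lysyl oxidase-like gene Loxl2 (-0.64). Pxdn, which encodes the peroxidase that crosslinks type IV collagen and is named here after its value was seen, differed by 0.55 with 24 of 26 probesets higher.

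Matrix proteases held the 2 genes of these lists that passed the 2-fold rule. Mmp2, a gelatinase that cuts type IV collagen, had levels of 5.77 and 7.39 and was 2.70-fold higher in the inhibitor array (difference 1.44, SD 0.54, 13 of 13 probesets). Mmp14, the membrane protease that activates the Mmp2 product, had levels of 5.91 and 6.83 and was 2.26-fold higher (difference 1.18, SD 0.72, 12 of 13 probesets). Of the 18 measured proteases and inhibitors none was lower at 2-fold, and the median was 0.04. Mmp13 (-0.75 over 4 probesets), Mmp3 (0.67, 4 of 6 probesets higher), Timp1 (0.62) and Mmp11 (0.43) came next. The inhibitor level of Mmp13, 3.11, and the control level of Mmp3, 3.15, were under the table's median. None of 19 matrix receptors passed the rule (median 0.10). The laminin receptor chain Itga6 differed by 0.67, the fibronectin receptor chain Itga5 by 0.58, Itgav by -0.49 and Sdc2 by 0.46. None of 16 other basement membrane proteins passed it (median -0.02), where the endothelial gene Mmrn2 (0.75, with a control level of 3.11 under the table's median), Fbln1 (0.52), Frem1 (-0.34) and Fras1 (-0.33) were furthest from 0.

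**Figure D4:**
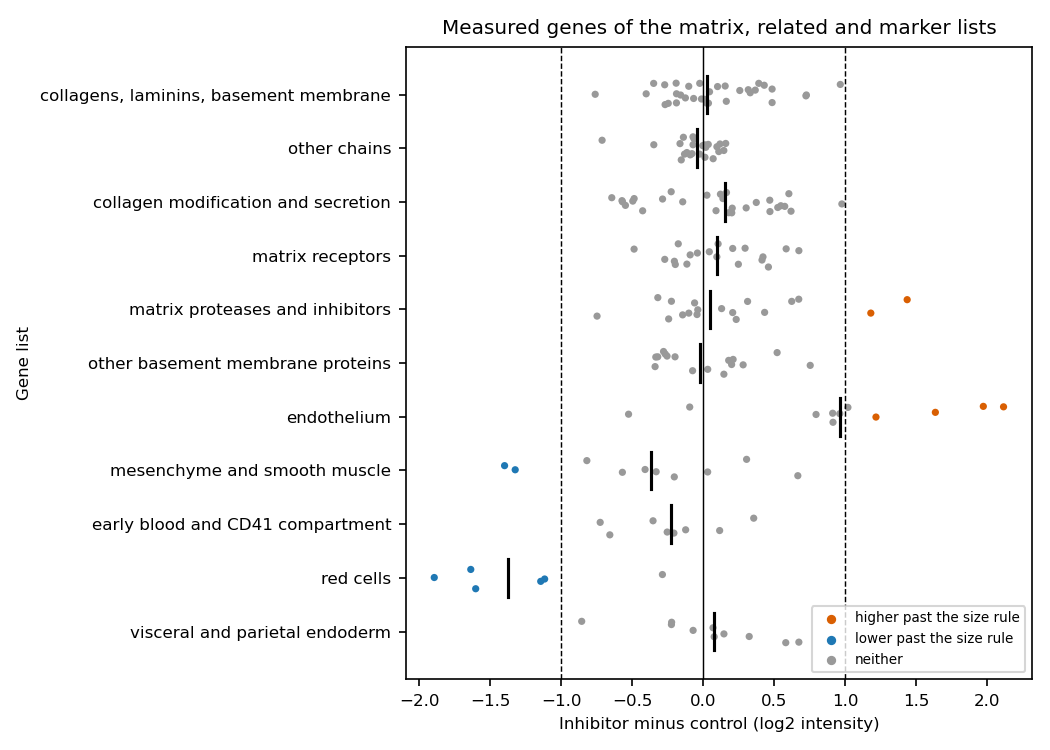
Differences on the log2 scale, inhibitor minus control, of the measured genes of the matrix list, 5 lists of related genes and 5 lists of cell type markers. Each point is a gene, vertical bars are list medians, dashed lines mark a 2-fold difference, and colours mark genes past the size rule. The matrix list has a median of 0.03 and no coloured point, the endothelial markers a median of 0.96 and the mesenchymal markers a median of -0.37.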

How the data were processed

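The data are the deposited values of 2 Affymetrix arrays, 1 of DMSO-treated and 1 of inhibitor-treated CD41-positive cells. Per the labels' protocols, cDNA made from amplified cRNA was fragmented and labelled with biotin. The authors' deposited values were read as log2 intensity, since they run from 0.157 to 13.5. How they were summarised and normalized is not given in the sources used here. At equal rank the arrays lie within 0.085 of each other. With its header the table fills 1048576 lines, exactly the limit of a spreadsheet, so some probesets of a gene may not have been analysed here. It holds no detection calls.

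Probesets with 1 gene symbol (270105) were used, and older symbols were updated through RefSeq GRCm38.p6. A probeset was bright if the higher of its values reached the table's median. Genes with at least 4 bright probesets were summarised by medians, with no further scaling. The size rule asked for 2-fold and 75% of bright probesets in one direction, and 1.5-fold was an alternative. Promoter windows came from RefSeq. Scripts ran in Python 3.11.15 with numpy 2.4.6, pandas 2.3.3 and statsmodels 0.14.6, and the gene summary was tested on simulated data. The differences planted there were all above 2-fold, and the noise was independent for each probeset. The simulation therefore does not bear on smaller differences or on error between arrays. All genes of the list were named. Of each related list, genes past the size rule and up to 4 others with the largest absolute difference were named. Col4a3 and further genes for collagen modification and secretion were named outside this rule, the latter after their values were seen. The genes and lists were chosen with earlier results of these data known.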

Additional observations from a re-analysis of the deposited data

How the results depend on the processing

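Each of 14 alternatives was run alone: each array centred, quantile normalization, removal of a level-dependent trend, other filters on dim probesets, a floor at the table's median, the mean over probesets, a minimum of 1 or of 8 bright probesets, use of probesets shared by genes, 1.5-fold and 3-fold thresholds, and no direction rule. No gene of the list passed 2-fold in either direction in the main setting or in any alternative that kept that threshold. At 1.5-fold, 3 were higher and 1 lower. The sign of the difference was the same in all alternatives for 26 of the 33 measured genes. It turned in at least 1 for Col4a5, Col4a6, Col5a2, Col8a1, Col13a1, Col15a1 and Agrn, whose main differences lay between -0.10 and 0.04. The minimum of 1 or of 8 bright probesets, the 1.5-fold and 3-fold thresholds and the absent direction rule cannot change a gene's difference. Their agreement in sign was therefore fixed in advance. Serpinh1, with 6 bright probesets, was not measured at a minimum of 8. Col4a1 ranged from 0.89 to 0.99, Col4a2 from 0.63 to 0.84, Hspg2 from 0.41 to 0.51, Fn1 from 0.36 to 0.42 and Col12a1 from -0.81 to -0.62. The list median of 0.03 ran from 0.0032 to 0.07, and was -0.07 with the trend removed, where the median of all genes was -0.02. Over all genes, 259 were higher and 85 lower in the main setting. These counts were 882 and 402 at 1.5-fold, 70 and 18 at 3-fold, 641 and 439 with a minimum of 1 bright probeset, and 155 and 44 with a minimum of 8. With a floor at the table's median 51 genes were lower. No paired analysis was possible because each condition has 1 array. The table has no background measure, so dim probesets limit the values: 40 of 65 probesets of Lama2, 26 of 64 of Lama3, 22 of 63 of Col4a6 and 16 of 43 of Col6a3 were below the table's median in both arrays.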

Other observations

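Genes for collagen modification and secretion stood on both sides of 0, as seen after their values were known. Those named here are a selection and were not taken by size alone. Below 0 were the lysyl oxidase-like genes Loxl1 (-0.57, 7 of 11 probesets lower) and Loxl2 (-0.64, 12 of 14 lower), whose products crosslink collagen. On the same side were the lysyl hydroxylase gene Plod2 (-0.50, 15 of 18 probesets lower) and the procollagen protease gene Adamts2 (-0.55, 16 of 20 lower). So was the prolyl hydroxylase gene P3h2 (-0.57, 13 of 19 lower). Above 0 were P3h1, P3h3 (0.47, 12 of 19 probesets higher), P3h4 and the procollagen protease gene Bmp1 (0.47, 17 of 22 higher). So was Mia3, a gene for the export of bulky cargo such as collagen from the endoplasmic reticulum (0.57, 11 of 11 higher). None of these passed the 2-fold rule. Ppib (0.14, 6 of 6 higher), Crtap (0.16) and Colgalt1 (0.03) were closer to 0.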
